A study of Mus musculus with 6 samples.

Results

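The miR-125 and miR-100 family was measured here by 4 of the 380 named microRNA (miRNA) assays on the panel: miR-125a-5p, miR-125a-3p, miR-125b-5p and miR-100. They were chosen by name, though with earlier results of these data known. A threshold cycle (Ct) was recorded for all 4 in every sample, and all 4 were among the 115 miRNAs tested. In serum exosomes from mice given OCExoInhib, miR-125b-5p was lower than in vehicle samples, by 8.94-fold on the deposited normalization. The call was lost with global mean (log2 difference −1.98), quantile (−1.42) and sample-median (−0.63) normalization, and this miRNA carries Ct differences between samples that other assays repeat. Neither arm of miR-125a nor miR-100 passed the test.

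The study profiled exosomes, small vesicles that cells release, from the serum of mice 2 weeks after a joint operation abbreviated ACLT, which is read here as anterior cruciate ligament transection, a model of joint instability and osteoarthritis. There were 3 samples from vehicle-treated and 3 from OCExoInhib-treated mice, and every mouse in both groups had the operation. The name OCExoInhib is not explained in the labels. It is understood here, from knowledge of the study and not from the labels or files, as a treatment meant to block the release of exosomes by osteoclasts, the cells that resorb bone. The labels give no strain, sex, age or dose. The design text speaks of pooled RNA from 3 mice per group and leaves unsaid if the 3 samples are single mice or repeat runs of a pool. The p-values therefore cover the spread between these samples alone, and that spread may be technical.

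Mature miRNAs are short RNAs that guide Argonaute proteins to messenger RNAs, mainly through the seed, the bases near the 5′ end of the miRNA. The miR-125 family is the vertebrate counterpart of lin-4 of the nematode, and its genes lie beside let-7 and miR-99 or miR-100 genes in clusters that trace to a shared ancestor. miR-125b is known to restrain osteoblast differentiation and, in chondrocytes, to repress the aggrecan-cleaving protease ADAMTS4. miR-100 is known to repress the growth kinase mTOR. The 3p arm of miR-125a comes from the other strand of the miR-125a hairpin and has a different seed, so the arms have different predicted targets.

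The mature sequences are shown because several of the assayed RNAs share most of their bases. Capitals mark the seed, bases 2 to 8 from the 5′ end. The sequences are those listed with the deposited values, and each of the 4 is identical to a mature mouse miRNA in RefSeq (GRCm38.p6).
miR-125a-5p: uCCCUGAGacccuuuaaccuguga
miR-125b-5p: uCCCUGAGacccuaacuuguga
miR-125a-3p: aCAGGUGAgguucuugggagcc
miR-100: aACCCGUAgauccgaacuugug
miR-99a: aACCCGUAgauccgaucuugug
let-7e: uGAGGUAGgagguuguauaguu
let-7a: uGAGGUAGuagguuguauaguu

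miR-125a-5p and miR-125b-5p share the seed CCCUGAG, their first 13 bases and their last 5, and they differ in length by the stretch between (24 and 22 bases). One further assay on the panel, miR-351, has this seed. miR-100 shares the seed ACCCGUA with miR-99a and miR-99b, and it differs from miR-99a at 1 position, A16U, counted from the 5′ end with the base of miR-100 first. let-7e differs from let-7a at 1 position, U9G, with the base of let-7a first. No other assay on the panel had the seed of miR-125a-3p. How well the assays discriminate between these sequences was not tested.

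In RefSeq's annotation of GRCm38.p6 the family lies in 3 clusters, all on the plus strand. On chromosome 17, Mir99b, Mirlet7e and Mir125a lie within 692 bases inside the protein-coding gene Spaca6, with mature miR-125a-5p at chr17:17830817-17830840 and miR-125a-3p at chr17:17830855-17830876. On chromosome 9, Mir100, Mirlet7a-2 and Mir125b-1 span 50.6 kb inside the long non-coding RNA gene Mir100hg, with mature miR-100 at chr9:41531437-41531458 and miR-125b-5p at chr9:41581940-41581961. On chromosome 16, Mir99a, Mirlet7c-1 and Mir125b-2 span 47.4 kb and overlap no other gene in that table, with a second copy of mature miR-125b-5p at chr16:77646279-77646300. The miR-125b-5p assay therefore reads the product of 2 genes. The table does not separate exon from intron, so the position within the host genes is not given.

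A Ct is the cycle at which fluorescence crosses a threshold, so more template gives an earlier, lower Ct, and a step of 1 cycle stands for roughly 1 doubling. Levels below are log2 levels relative to the mean of 3 control wells, as the authors normalized them, with the sign turned so that higher means more. Assays differ in efficiency, so levels are compared between groups for 1 assay and not between assays. A Ct was present in all samples for 123 named miRNAs and in none for 257. The mean Ct over the control wells was 30.92 ± 0.318 for vehicle and 30.19 ± 0.531 for OCExoInhib (SD, n = 3 each), a difference of −0.725 cycles (exact two-sided permutation p = 0.2, where the smallest that 3 against 3 can give is 0.1). No member had a Ct of 35 or later, the region where a value rests on few template molecules.

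The miR-125b-5p assay separated the groups. The raw Ct was 28.195, 28.096 and 27.257 in vehicle samples 1, 2 and 3, and 31.21, 30.322 and 29.324 in OCExoInhib samples 1, 2 and 3. Every OCExoInhib sample thus crossed the threshold later than every vehicle sample, before any normalization. How many of all tested miRNAs lay apart on raw Ct was not counted. The log2 level was 2.80, 2.47 and 3.94 in vehicle and −0.86, 0.31 and 0.28 in OCExoInhib samples. The groups did not overlap, with a mean of −0.09 ± 0.67 in OCExoInhib against 3.07 ± 0.77 in vehicle (SD, n = 3 each). The log2 difference, OCExoInhib minus vehicle, was −3.16 (SE 0.78, 95% interval −4.82 to −1.50, limma adjusted p = 0.00488 over 115 miRNAs), which is 8.94-fold lower with an interval of 2.82-fold to 28.3-fold. The authors' deposited table gives 8.942 for the ratio of vehicle over OCExoInhib. The log2 difference was smaller on the other scales. It was −1.98 with global mean normalization (limma adjusted p = 0.11), −1.42 with quantile normalization (0.397), −0.63 with samples centred on their medians (0.465) and −2.44 with no normalization (0.0462). The Ct values of this assay share differences between samples with other assays, and whether they are independent measurements is not known.

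The miR-125a-5p assay did not separate the groups. Its log2 level was 2.21, 5.01 and 5.29 in vehicle samples 1, 2 and 3, and 3.83, 3.78 and 3.99 in OCExoInhib samples. Vehicle 1 was the lowest of the 6 samples and vehicle 3 the highest, with the 3 OCExoInhib samples between them and within 0.21 of each other. The mean was 4.17 ± 1.70 in vehicle and 3.87 ± 0.11 in OCExoInhib (SD, n = 3 each). The log2 difference was −0.30 (SE 0.88, 95% interval −2.18 to 1.57, limma adjusted p = 0.87). Without vehicle 1 it was −1.28 (limma adjusted p = 0.407), and without vehicle 3 it was 0.26. An interval this wide leaves room for a fall of 4.52-fold or a rise of 2.96-fold.

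The other arm of that hairpin, miR-125a-3p, had log2 levels of 5.27, 4.84 and 5.05 in vehicle and 6.71, 5.02 and 4.83 in OCExoInhib samples. OCExoInhib 1 stood above the rest, OCExoInhib 2 lay within the vehicle range and OCExoInhib 3 just below it, so the groups overlapped. The log2 difference was 0.47 (SE 0.79, 95% interval −1.21 to 2.14, limma adjusted p = 0.866). It was −0.13 without OCExoInhib 1. On raw Ct alone, the OCExoInhib samples at 23.636, 25.611 and 24.776 were all earlier than the vehicle samples at 25.722, 25.734 and 26.144, the nearest being vehicle 1 and OCExoInhib 2. The share of all tested miRNAs with groups apart on raw Ct was not counted, and the control wells also differed, by −0.725 cycles. Without normalization the log2 difference of miR-125a-3p was 1.19 and did not pass the test (limma adjusted p = 0.504).

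For miR-100 the log2 level was 3.55, 5.12 and 6.38 in vehicle and 4.77, 6.89 and 4.43 in OCExoInhib samples. The groups overlapped over most of their range, which was 2.83 in vehicle and 2.46 in OCExoInhib. The log2 difference was 0.35 (SE 0.92, 95% interval −1.61 to 2.31, limma adjusted p = 0.87). Leaving out vehicle 1 gave −0.38 and leaving out OCExoInhib 2 gave −0.41, so single samples set the sign.

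**Figure D1:**
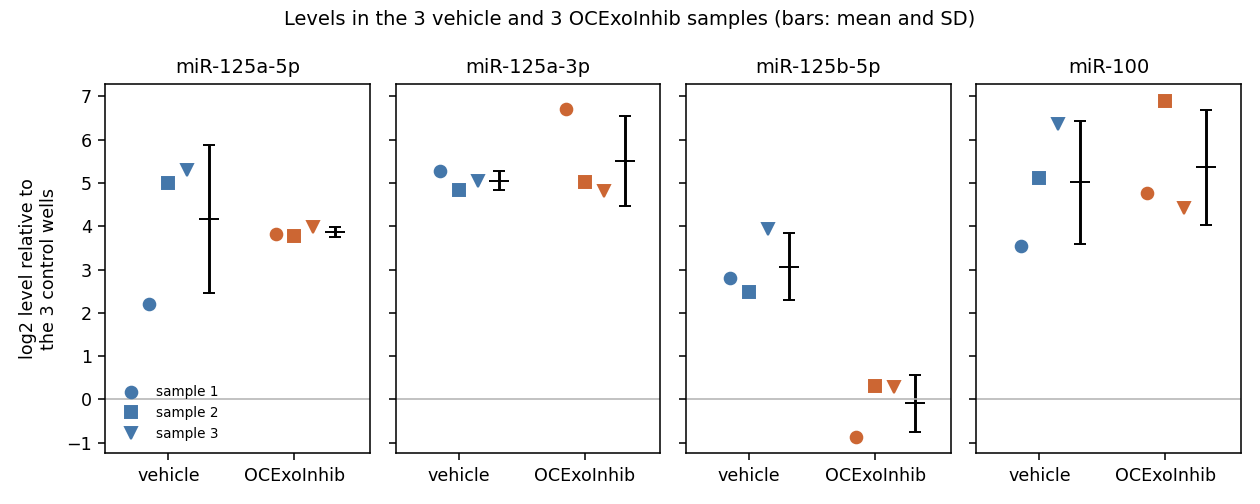
Log2 level relative to the 3 control wells (vertical axis) of the 4 members in each vehicle and OCExoInhib sample, with the marker shape giving the sample number and bars the group mean and SD (n = 3). The groups lie apart for miR-125b-5p, at 2.47 to 3.94 against −0.86 to 0.31, and overlap for the other members.

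In all, 1 of the 4 members passed and it was lower, against 27 of 115 tested miRNAs (23.5%) in either direction and 20 (17.4%) lower. The share of members is near that background. The balance of all calls moved with the scaling, to 9 lower and 7 higher with quantile normalization and to 11 lower and 57 higher when samples were centred on their medians. The groups did not overlap for 1 member, against 30 of the 115 (26.1%). On the higher side 0 members passed, against 7 of the 115 (6.09%). Requiring a Ct under 35 in all samples took those 7 out before testing, since their vehicle values were late, and left 0 called higher. The members had no late values, so these 7 are an unlike background for them. The smallest unadjusted limma p of the other 3 members was 0.561. The median log2 difference of the 4 members was 0.02, against −0.54 over all tested miRNAs. By the size of its difference, miR-125b-5p was number 26 of 115, at the small end of the 27 that passed. The members that did not pass were numbers 72 (miR-125a-3p), 89 (miR-100) and 94 (miR-125a-5p).

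**Figure D2:**
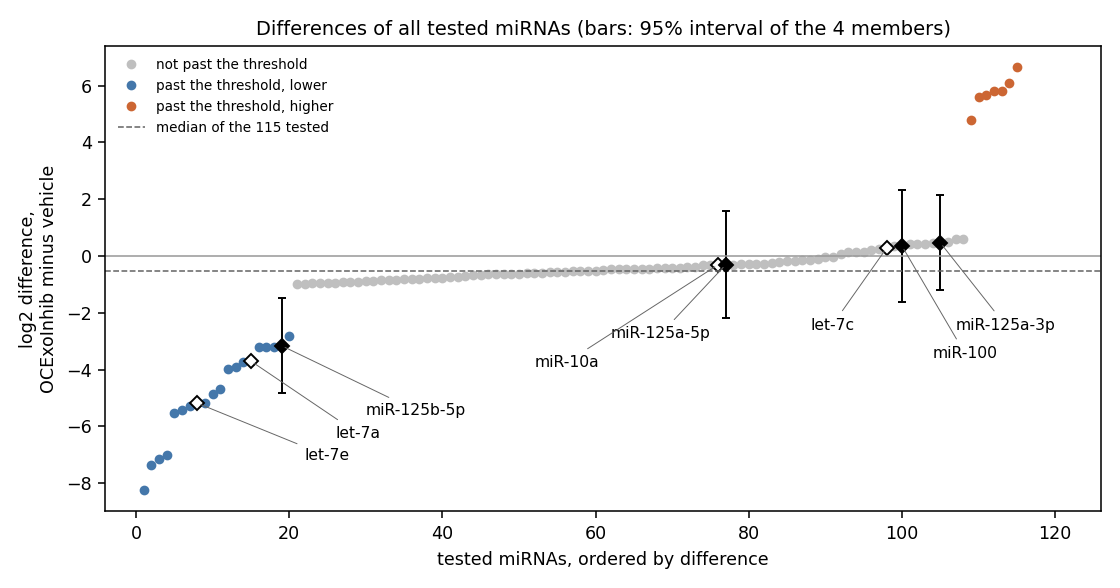
Log2 difference (OCExoInhib minus vehicle, vertical axis) of the 115 tested miRNAs in order of size, with the 4 members as filled diamonds with 95% intervals and 4 relatives as open diamonds. miR-125b-5p at −3.16 lies among the 20 that were lower, and miR-125a-5p, miR-125a-3p and miR-100 lie in the plateau that did not pass.

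The order of Ct values within a sample needs no normalization. Among the 115 tested miRNAs, with 1 the earliest, miR-125b-5p was at positions 64, 73 and 55 in vehicle and 90, 78 and 66 in OCExoInhib samples, so the position of OCExoInhib 3 lay within the vehicle range. miR-125a-3p stood at positions 26, 45 and 38 in vehicle and 12, 24 and 20 in OCExoInhib samples, all earlier. Positions of miR-125a-5p ran from 34 to 71 in vehicle and from 30 to 49 in OCExoInhib, and those of miR-100 from 18 to 52 and from 9 to 35. Position also moves when other miRNAs fall or rise, and 27 of the 115 were called. The share of all tested miRNAs whose positions lay apart between groups was not counted.

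Whether paralogs and arms moved differently was read from the Ct of one member minus that of another in the same sample, where the normalization cancels. This was done for all 6 pairs of members. The change of each pair follows from the separate differences of its 2 members, so only the spread within groups is added. For miR-125a-5p minus miR-125b-5p, the paralogs with the same seed, the difference was 0.587, −2.535 and −1.357 cycles in vehicle and −4.688, −3.475 and −3.711 in OCExoInhib samples. The groups lay apart, with the mean going from −1.10 ± 1.58 to −3.96 ± 0.643 (SD, n = 3 each). The change was −2.86 cycles, with p = 0.1 by the exact two-sided permutation test, the floor of this design, and 0.2 after Benjamini-Hochberg adjustment over the 6 pairs. It ranged from −3.57 without vehicle 2 to −2.01 without vehicle 1.

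miR-125b-5p minus miR-100, which both have a gene in the chromosome 9 cluster, was 0.751, 2.642 and 2.44 cycles in vehicle and 5.633, 6.584 and 4.151 in OCExoInhib samples. The OCExoInhib values were all higher, by 3.51 cycles on average (exact p = 0.1, adjusted 0.2). For miR-125a-3p minus miR-125b-5p the groups also lay apart, with a change of −3.63 cycles (exact p = 0.1, adjusted 0.2). Each of the 3 pairs whose groups lay apart includes miR-125b-5p. These 3 pairs restate the fall of that 1 assay, with its repeated Ct differences, and are not separate support for it.

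The 3 pairs without miR-125b-5p overlapped between groups. miR-125a-5p minus miR-125a-3p, the arms of one hairpin, was 3.06, −0.173 and −0.244 cycles in vehicle and 2.886, 1.236 and 0.837 in OCExoInhib samples. Sample 1 of each group had the widest gap between the arms, and the change of 0.77 cycles was smaller than the SD within either group (exact p = 0.6, adjusted 0.84). miR-125a-5p minus miR-100 changed by 0.66 cycles (exact p = 0.7, adjusted 0.84) and miR-125a-3p minus miR-100 by −0.12 (exact p = 0.9). These p-values do not show that the members of these pairs act alike, since the SD of the within-sample differences reached 1.92 cycles.

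**Figure D3:**
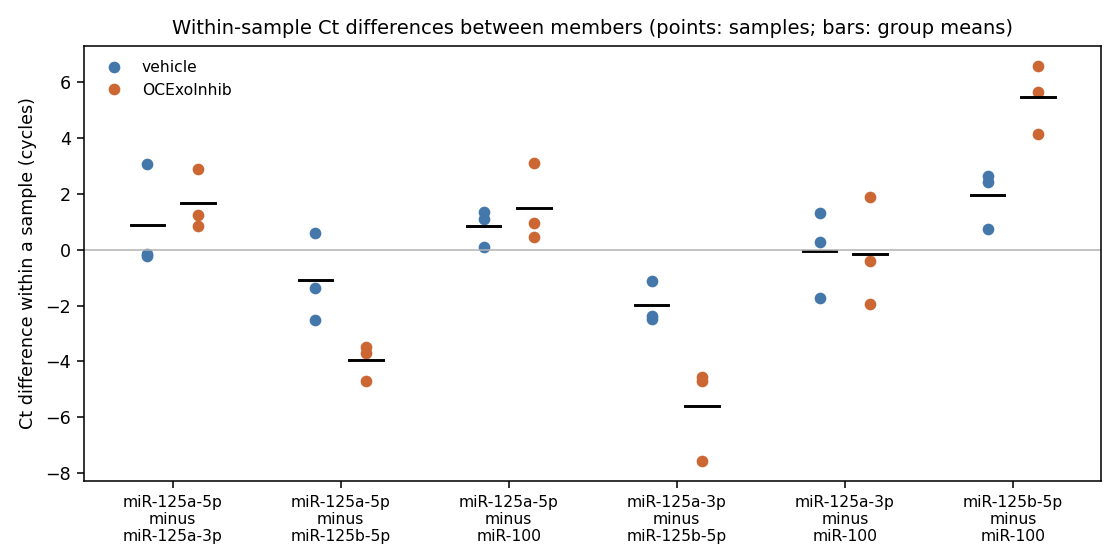
Ct of one member minus that of another in the same sample (vertical axis, cycles) for the 6 pairs, with points for samples and bars for group means (n = 3). The groups lie apart in the 3 pairs that include miR-125b-5p, with changes of −2.86, −3.63 and 3.51 cycles, and overlap in the other 3.

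Relatives by seed, sequence or cluster gave a mixed picture. Of 13 listed relatives, 9 were on the panel under these names and 4 of those had a Ct. The others, miR-351, miR-99a, miR-99b, miR-10b and miR-125b-3p, had no Ct in any sample. Thus miR-100 was recorded at mean Ct values of 25.9 (vehicle) and 24.8 (OCExoInhib), while miR-99a, which differs from it by A16U, had none. The 5p arm of miR-125b had a Ct in all samples and the listed 3p arm, whose sequence is that of miR-125b-1-3p, in none. The depth of such an assay is set by its 40 cycles, so a missing Ct shows only that the threshold was not crossed or not recorded. miR-10a, which resembles miR-100 in sequence and has a different seed, had a log2 difference of −0.31 (SE 0.87, limma adjusted p = 0.87), which was above 0 with global mean, no and median normalization.

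In the let-7 partners of the clusters, 2 of 3 were lower and 1 did not pass, against 20 of all 115 tested (17.4%) lower. let-7e, the neighbour of miR-125a on chromosome 17, had log2 levels of 4.58, 5.03 and 5.72 in vehicle and −0.74, 0.11 and 0.40 in OCExoInhib samples. This was a fall of 36.3-fold (−5.18 on the log2 scale, SE 0.76, limma adjusted p = 7.56e-05). let-7a, of which one gene lies between Mir100 and Mir125b-1, fell by 13.0-fold (−3.70 on the log2 scale, SE 0.84, limma adjusted p = 0.00255), a call that was lost with quantile (−2.12, adjusted p 0.237), no (−2.98, 0.0502) and sample-median normalization (−1.18, 0.18), with the unmoderated equal-variance test (−3.70, 0.0649) and with the sample number as a block (−3.70, 0.0692). let-7e passed under each of the 16 alternatives that kept it, but those on late cycles, variance model and sample block left its difference at −5.18. The alternative without repeated Ct differences left let-7e out. Both let-7e and let-7a carry repeated Ct differences, as do 19 of the 20 miRNAs called lower. let-7c, the partner of Mir125b-2 on chromosome 16, had a log2 difference of 0.28 (SE 0.89, limma adjusted p = 0.87). The median of the 3 was −3.70, against −0.54 over all tested miRNAs. let-7a and let-7c also come from genes outside these clusters, and their assays do not tell the genes apart.

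On the deposited normalization the measured miRNAs of a cluster therefore did not all pass together. Those that passed, let-7e, let-7a and miR-125b-5p, carry repeated Ct differences, and the others do not. The part of the repeated differences in this pattern was not tested. With quantile normalization miR-100 (limma adjusted p = 0.533), let-7a (0.237), miR-125b-5p (0.397) and let-7c (0.632) all failed to pass. In addition, 5 within-sample differences between members and let-7 partners were computed with the values above known. They restate the separate differences and were not tested. On chromosome 17, miR-125a-5p minus let-7e was 2.369, 0.018 and 0.426 cycles in vehicle and −4.565, −3.67 and −3.588 in OCExoInhib samples. The groups lay apart, with a change of −4.88 cycles, and miR-125a-3p minus let-7e changed by −5.65. On chromosome 9, miR-100 minus let-7a changed by −4.05 cycles, again with groups apart. miR-125b-5p minus let-7a was −0.447, 2.593 and −0.446 cycles in vehicle and 1.383, −0.813 and −0.496 in OCExoInhib samples. These groups overlapped, with a change of −0.54. Both assays carry the repeated difference between vehicle 1 and vehicle 3 (0.938 and 0.939 cycles), so their values may not be independent. Against let-7c, miR-125b-5p changed by 3.44 cycles with the groups apart.

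The fall of miR-125b-5p came with Ct differences that other miRNAs repeat. Vehicle 1 minus vehicle 3 was 0.938 cycles for miR-125b-5p, and 17 miRNAs including it had this value within 0.0015 cycles. All 17 were among the 20 called lower, and let-7a and let-7e were among them. OCExoInhib 1 minus OCExoInhib 3 was 1.886 cycles for miR-125b-5p and for 10 miRNAs in all, each also called lower, let-7e among them. Between the same samples miR-125a-5p differed by 2.882 and 0.909 cycles, miR-125a-3p by −0.422 and −1.14, and miR-100 by 2.627 and 0.404. No difference between samples of a group repeated in at least 5 miRNAs for these 3 members. Of the 115 tested miRNAs, 23 carried such a repeated difference, 22 of the 27 that passed and 1 of the 88 that did not. Without these 23 miRNAs miR-125b-5p itself is left out, and 5 of 92 miRNAs passed. Ct values that repeat the difference of other assays may not be independent measurements, which bears on the 8.94-fold of miR-125b-5p and the 36.3-fold of let-7e alike. The part of the repeated differences in these folds was not tested.

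**Figure D4:**
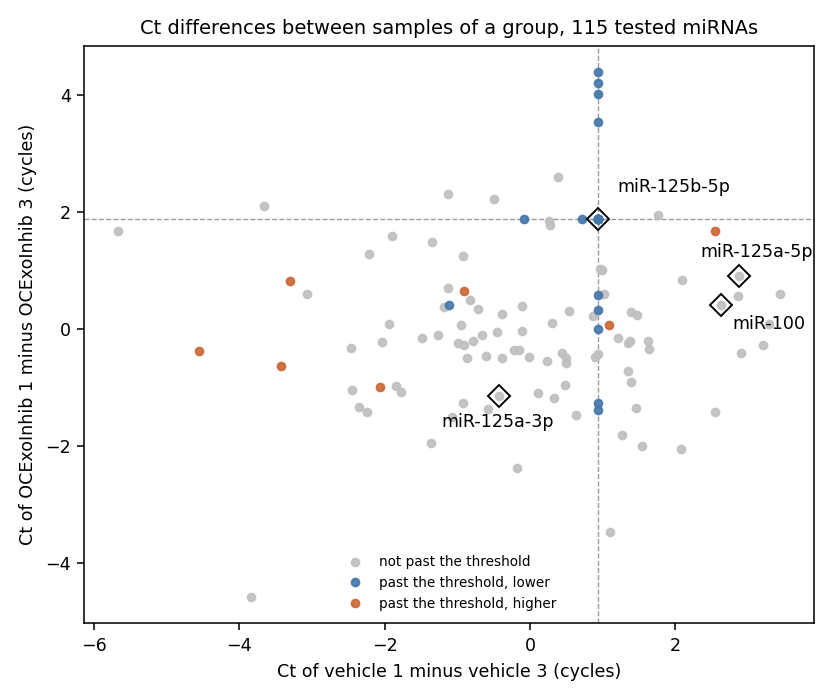
Ct of vehicle 1 minus vehicle 3 (horizontal axis, cycles) against OCExoInhib 1 minus OCExoInhib 3 (vertical axis, cycles) for the 115 tested miRNAs, with the 4 members as open diamonds and dashed lines at the values of miR-125b-5p. miRNAs that were lower line up on the dashed lines at 0.938 and 1.886 cycles, and miR-125a-5p, miR-125a-3p and miR-100 lie off both lines.

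The size of every difference depended on how samples were scaled, since scaling moved all miRNAs together. Over all tested miRNAs the median log2 difference was −0.54 as deposited. It was 0.64 after global mean and 0.20 after quantile normalization, 0.18 on raw Ct and 1.98 after centring on sample medians. Relative to that median, miR-125b-5p was at −2.62 on the deposited, global mean, unnormalized and median scales and at −1.62 on the quantile scale. miR-125a-3p was at 1.01 above the median on the first 4 of these scales and 1.19 on the quantile scale. miR-100 was at 0.89 and 1.00, and miR-125a-5p at 0.24 and 0.59. With sample medians the limma adjusted p of miR-125b-5p was 0.465, and miR-125a-5p (0.0365), miR-125a-3p (0.0115) and miR-100 (0.0152) passed as higher, as did 57 miRNAs in all. Apart from the quantile scale, these scales differ by 1 value per sample that moves every miRNA alike, so the sign of a small difference such as that of miR-125a-5p (−0.30 as deposited, 0.87 with global mean) follows the scale.

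**Figure D5:**
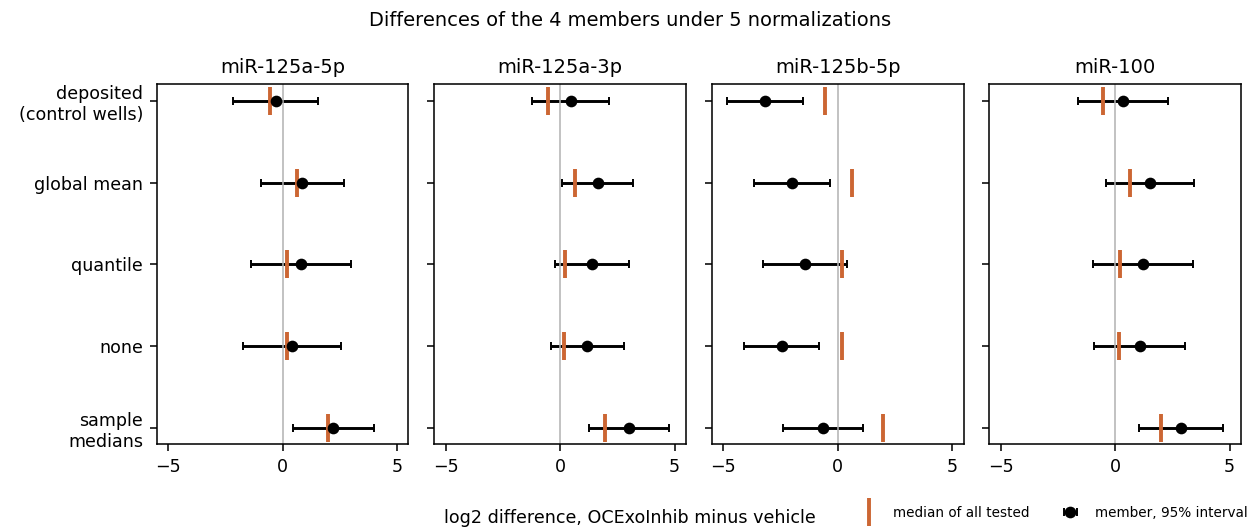
Log2 difference (horizontal axis, OCExoInhib minus vehicle) of the 4 members with 95% intervals under 5 normalizations, with a vertical tick at the median of all tested miRNAs. miR-125b-5p lies at −2.62 relative to the median, or −1.62 with quantile normalization, and the other members lie above it.

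The tested miRNAs with the most similar pattern were found by the root mean square difference in log2 level over the 6 samples, after each miRNA's own mean was subtracted. For miR-125b-5p these were miR-145 (0.40), miR-133a (0.67) and miR-30a (0.88), against a median of 1.73 over all other miRNAs. All 3 were called lower and carried a repeated Ct difference, which 19 of the 20 called lower carry. The measure includes the difference between the groups, so the nearest miRNAs tend to share a member's call. For miR-125a-5p they were miR-92a (0.41), miR-206 (0.48) and miR-103 (0.48). For miR-125a-3p they were miR-130b (0.33), miR-136 (0.36) and miR-547 (0.47). For miR-100 they were miR-106a (0.30), let-7b (0.68) and let-7c (0.72), the last a cluster relative of miR-99a. None of these 9 passed the test, which follows in part from the measure.

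miRNAs typical of other sources of serum RNA moved with miR-125b-5p in part. Among 4 erythrocyte miRNAs, miR-451 and miR-486 had no Ct. Of the 2 tested, miR-16 was called lower and miR-144 did not pass (log2 difference −0.56, limma adjusted p = 0.866). The summed linear level of the 2 with a Ct, relative to the control wells, ran from 26.8 to 156 in vehicle and from 6.72 to 25.2 in OCExoInhib samples. Such sums cover only the miRNAs with a Ct, and 1 assay can dominate them since assays differ in efficiency. Of 3 platelet miRNAs, miR-126-3p had no Ct, miR-223 had a Ct but was not among those tested, and miR-21 was lower. The platelet sums were 13.5 to 54.7 in vehicle against 0.735 to 1.48 in OCExoInhib samples. Of 3 liver miRNAs, miR-122 had no Ct, miR-194 was lower and miR-192 did not pass (log2 difference −0.16, limma adjusted p = 0.90). The liver sums overlapped, at 46.3 to 177 in vehicle against 24.4 to 84.2 in OCExoInhib samples. Of 4 leukocyte miRNAs, 3 had no Ct and the 1 tested did not pass. Its linear level was 4.83 to 14.5 in vehicle against 10.3 to 16.0 in OCExoInhib samples. Neither endothelial miRNA had a Ct. Over all tested miRNAs, 20 of 115 (17.4%) were lower. miR-16, miR-21 and miR-194 were among the 17 that share the vehicle difference of miR-125b-5p. Their part in its fall was not tested. The panel holds no protein marker of exosomes, so the vesicle fraction itself could not be checked.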

How the data were processed

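RNA of serum exosomes was profiled by SYBR Green quantitative PCR with a mouse exosome miRNA kit for 40 cycles, per the labels' protocols. The deposited raw values are Ct, per the file headers. The values the authors deposited as normalized are, per the file headers, log2-scale Ct differences from a spiked-in control. They were reproduced by subtracting from each raw Ct the mean of 3 unnamed control wells of the same sample. The authors also deposited, for each assay, the ratio between the group levels, with vehicle as numerator. The fluorescence threshold is not stated in these sources.

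Tests covered named miRNAs below Ct 35 in 3 or more of the 6 samples. They were run with limma 3.58.1 in R 4.3.3 (lmFit, eBayes, two-sided, Benjamini-Hochberg over 115, threshold 0.05). A check on simulated data came first. Its errors were independent, so it did not cover repeated Ct differences. Within-sample differences were tested by exact permutation (Python 3.11.15, scipy 1.17.1). Named miRNAs are the members, listed relatives, the 3 nearest patterns per member and markers of other cells. The members and lists were chosen with earlier results of these data known. Alternatives covered normalization, late cycles, variance model, sample number as a block, samples left out and repeated Ct differences.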

Additional observations from a re-analysis of the deposited data

How the results depend on the processing

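With single samples left out, 24 to 27 miRNAs were called, 17 to 20 lower and 7 to 7 higher. The log2 difference then ranged from −3.46 to −2.73 for miR-125b-5p, from −1.28 to 0.26 for miR-125a-5p, from −0.13 to 0.81 for miR-125a-3p and from −0.41 to 1.03 for miR-100. That of miR-10a ranged from −0.94 to 0.40 and that of let-7c from −0.62 to 1.04. Among pairs, miR-125a-5p minus miR-100 ranged from −0.15 to 1.18 cycles and miR-125a-3p minus miR-100 from −1.13 to 0.78. The other 4 pairs kept their sign under all 8 alternatives, of which the limit on late cycles and the sample block cannot change a pair's difference. Of these pairs, miR-125a-5p minus miR-125a-3p ranged from 0.16 to 1.86 cycles, and the rest include miR-125b-5p.

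miR-125b-5p kept its call in 13 of 16 alternatives, but those on late cycles, variance model and sample block left its difference at −3.16. Among the other normalizations the call was kept only with no normalization (−2.44, limma adjusted p = 0.0462). miR-125b-5p was not called with global mean (−1.98), quantile (−1.42) or sample medians (−0.63). miR-125a-5p turned positive with global mean (0.87), quantile (0.79), no normalization (0.42) and sample medians (2.22), as did miR-10a with global mean (0.87), no normalization (0.41) and sample medians (2.22). With sample medians miR-125a-3p (2.99) and miR-100 (2.88) passed. Called miRNAs numbered 16 with quantile normalization (9 lower), 68 with sample medians (11 lower, 57 higher), 15 with an unmoderated equal-variance test (11 lower, 4 higher) and 5 without repeated differences (1 lower, 4 higher). Apart from the equal-variance test, the calls were by limma. A Ct under 35 in all samples left 19 called at either an adjusted or an unadjusted p under 0.05, with 0 higher, since late vehicle values removed those. Scalings that subtract 1 value per sample move every miRNA alike. For the other changes the cause was not tested.

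Deviations from the group mean correlated by 0.059, 0.018 and 0.117 between samples with the same number, which does not establish a pairing. A replicate block on that number gave 25 calls, 18 lower and 7 higher. miR-125b-5p stayed at −3.16 (limma adjusted p = 0.0251) and let-7a at −3.70 no longer passed (0.0692).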
